A study of Mus musculus with 6 samples.

Results

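Sik1 encodes salt-inducible kinase 1, a serine/threonine kinase that older annotations list as Snf1lk. It was 1 gene among 3939 named genes on arrays of mouse skeletal muscle that had been paced electrically. It was followed through the 1 probe that the platform annotation gives to Sik1 alone, and this probe was measured on all 6 arrays. The gene was chosen by measured values from these same arrays: its log2 ratio and rank on each array and its difference from sham-operated muscle. All its values below are therefore a description and carry no test. Mice carried an implanted pacer that stimulated the muscle for 3 h, and muscle was taken 0 h, 1 h, 3 h, 8 h or 24 h after stimulation ended. Sham-operated mice carried a pacer that stayed inactive, with harvest timed to that of the 0 h group. Each of these 6 groups had 1 array, on which its total RNA was set against a reference RNA from control muscle called Pre. The strain, the age, the muscle taken and the number of mice behind each RNA are not given in the sources used here.

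Salt-inducible kinases belong to the family of kinases related to AMP-activated protein kinase (AMPK), and the kinase LKB1 switches them on by phosphorylating their activation loop. Active salt-inducible kinases phosphorylate the CREB coactivators (CRTC proteins) and the class IIa histone deacetylases, which then bind 14-3-3 proteins and stay out of the nucleus. Transcription of Sik1 is itself raised by cyclic AMP through CREB, and protein kinase A (PKA) phosphorylates the kinase and restrains it, so the gene is known as a feedback element of cAMP signalling. In mouse skeletal muscle Sik1 is known as a CREB target that favours MEF2-dependent transcription through the class IIa histone deacetylases.

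The files give a ratio and no signal level. Which way the ratio runs is not stated, since no source used here gives the dyes. Pre is labelled as the reference, so sample over Pre is the likely direction, and every "above" and "below" here depends on it. Across genes, r between arrays ran from 0.22 to 0.75 over 15 pairs. The lowest was that of 0 h with sham, the pair matched in time. With the later arrays sham had an r of 0.59 (1 h), 0.65 (3 h), 0.41 (8 h) and 0.43 (24 h). Ratios were spread unequally, with robust standard deviations (SD) of the log2 ratio of 0.292 (0 h), 0.176 (1 h), 0.445 (3 h), 0.242 (8 h) and 0.399 (24 h), against 0.495 in sham. The sham column also differed in form, with 485 empty cells and 154 values that several probes of one print run share, neither of which was the case for the Sik1 probe. Levels of muscle markers could not be checked against the tissue label, since a ratio to control muscle holds no level.

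Sik1 stood above Pre on all 5 paced arrays and below Pre on the sham array. Its log2 ratio to Pre was 1.44 (0 h), 0.81 (1 h), 2.61 (3 h), 1.16 (8 h) and 1.06 (24 h), against -1.03 in sham (1 array each, no replicates). The sham value, 1 value set against 5, was the lowest of the 6, and the 3 h array was the highest. Of the 3183 genes measured on all arrays, 3.8% likewise had all 5 paced arrays above Pre and sham below it. The deposited log10 ratios behind the Sik1 values were 0.434, 0.243, 0.784, 0.345 and 0.316 in time order, against -0.313 in sham. As folds, Sik1 was 2.72 times Pre (0 h), 1.76 times (1 h), 6.12 times (3 h), 2.23 times (8 h) and 2.08 times (24 h), and 0.488 times Pre in sham. The step from sham to the 3 h array was the widest range over the 6 arrays among the 3183 genes measured on all of them, at 3.65 log2 units.

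**Figure D1:**
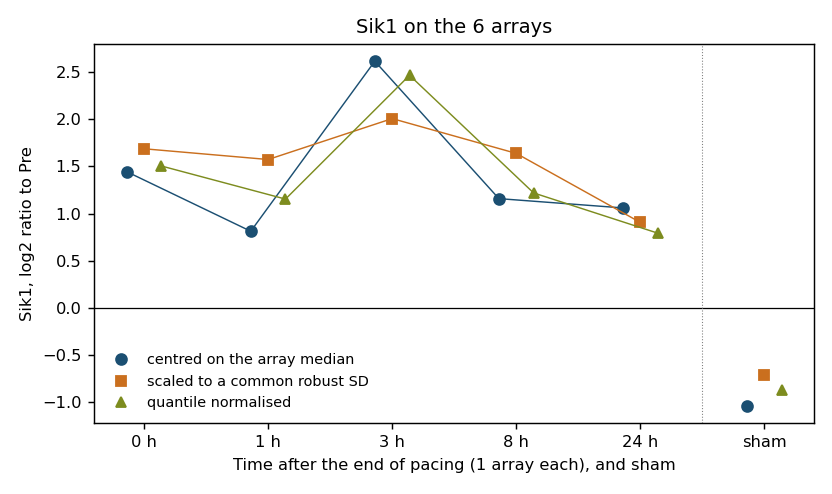
Log2 ratio of Sik1 to the reference Pre on each of the 6 arrays (1 array a group, no error bars possible), with paced arrays in time order and sham at the right. Circles are ratios centred on each array's median, squares are scaled to a common robust SD and triangles are quantile normalised. The 3 h array is highest and sham is lowest under all 3, while the gap between 3 h and the other paced arrays shrinks from circles to squares.

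Rank within an array does not depend on how widely that array's ratios are spread. By rank Sik1 was 21st of 3649 genes (0 h), 43rd of 3768 (1 h), 3rd of 3690 (3 h), 37th of 3872 (8 h) and 118th of 3664 (24 h). In sham it was 66th from the bottom of 3836 genes. At most 1.11% of genes stood above it at 0 h, 1 h, 3 h and 8 h, and 3.19% did at 24 h. In units of each array's robust SD, Sik1 lay 4.94 above the centre (0 h), 4.60 (1 h), 5.87 (3 h), 4.79 (8 h) and 2.65 (24 h), against -2.09 in sham. On this scale 0 h, 1 h and 8 h were nearly level. Probe IDs fall into 48 runs of equal length, and within its own run Sik1 was 2nd from the top at 0 h, 1 h, 3 h and 8 h, 4th at 24 h and 6th from the bottom in sham. The median of that run lay between -0.01 and 0.02 log2 units on the 6 arrays.

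**Figure D2:**
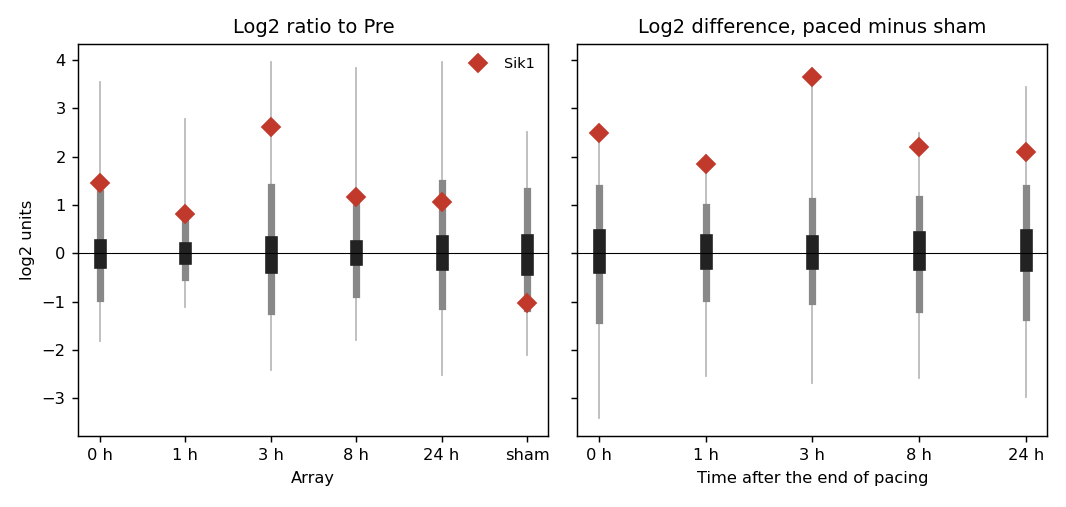
Sik1 (red diamonds) within all measured genes. The left panel gives log2 ratios to Pre on the 5 paced arrays and sham, and the right panel gives log2 differences of each paced array from sham; thin lines span the lowest to the highest gene, grey bars the 1st to 99th percentile and black bars the interquartile range. Sik1 lies at the top of the genes at 0 h and 3 h in the right panel and near the bottom for sham in the left panel.

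Against sham, Sik1 was 5.57-fold higher (0 h), 3.60-fold (1 h), 12.5-fold (3 h), 4.57-fold (8 h) and 4.27-fold (24 h). These are log2 differences of 2.48, 1.85, 3.65, 2.19 and 2.09. The 0 h comparison alone was matched in time to sham, so at the later times pacing cannot be told apart from elapsed time. Of all genes compared, 3.43% were at least 2-fold higher than sham (0 h), 0.865% (1 h), 1.43% (3 h), 1.79% (8 h) and 3.09% (24 h). Sik1 ranked 1st of 3586 genes (0 h), 2nd of 3698 (1 h), 1st of 3630 (3 h), 3rd of 3794 (8 h) and 5th of 3598 (24 h). With a common spread these places were 5, 7, 1, 4 and 6 in time order, and with quantile normalisation 2, 3, 1, 3 and 5, so the 1st place held under both at 3 h and not at 0 h. Its smallest difference over the 5 times, 1.85, was larger than the smallest difference of any other gene measured on all arrays.

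Part of every one of these differences was the low sham value, which enters each of them unchanged. It made up 41.7% of the log2 difference (0 h), 56.0% (1 h), 28.4% (3 h), 47.2% (8 h) and 49.4% (24 h). These shares depend on the scaling: at 1 h the share was 31.2% with a common spread and 42.9% with quantile normalisation, so that it fell on either side of 50%. At 24 h it was 44.1% and 52.2% under the same scalings, and at 3 h it was 26.3% and 26.0%. Against Pre alone, Sik1 was past 2-fold on 4 paced arrays, all but 1 h, and the genes that far above Pre made up 1.4% (0 h), 0.69% (1 h), 2.9% (3 h), 1.55% (8 h) and 3.74% (24 h). In sham, 1.98% of genes lay 2-fold or more below Pre, as Sik1 did. The genes past 2-fold above both sham and Pre were 0.53% (0 h), 0.0811% (1 h), 0.716% (3 h), 0.369% (8 h) and 1.2% (24 h). With arrays scaled to a common spread, Sik1 passed both at 1 h, at 1.57 against Pre, and no longer did so at 24 h, at 0.91.

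**Figure D3:**
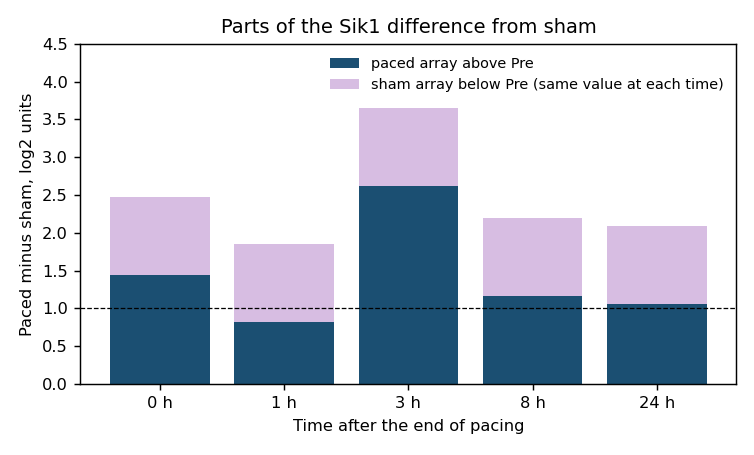
Each bar is the log2 difference of Sik1 from sham at one time after pacing, split into the part from the paced array standing above Pre (dark) and the part from the sham array standing below Pre (light, 1.03 at each time). The dashed line marks 2-fold; the dark part alone passes it at 0 h, 3 h, 8 h and 24 h and stays under it at 1 h.

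Standing above Pre on all 5 paced arrays, by any amount, was common, at 20.3% of the 3183 genes, and 3.8% did so with sham below Pre. With sham 2-fold or more below Pre, few genes were left. Besides Sik1 there was Axin1, which encodes a scaffold of the complex that degrades beta-catenin, and the pair made up 0.0628% of genes. Axin1 was at 0.51 (0 h), 0.02 (1 h), 0.86 (3 h), 0.08 (8 h) and 0.44 (24 h), against -1.18 in sham, so it lay close to Pre at 1 h and 8 h. With 1.5-fold required on all 6 arrays, paced above and sham below, Sik1 was the remaining gene (0.0314%). Sik1 was chosen by these same values, so its place in such sets is a description. Its own sham value was -0.71 with a common spread and -0.87 with quantile normalisation, short of the 2-fold limit. Being 2-fold above sham at all 5 times was met by 4 genes, or 0.126%: Sik1, Axin1, the histone gene H2bc4 and Lrrc58. Lrrc58 reached this with sham at 0.45 above Pre, H2bc4 with sham at -1.59. Axin1, H2bc4 and Lrrc58 are named here after their values were seen.

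Between paced arrays, where the sham value plays no part, Sik1 was 3.49-fold higher at 3 h than at 1 h, the 4th highest of 3584 genes. At 8 h it stood at -1.46 log2 units from 3 h, the 10th lowest of 3672 genes. The steps between 0 h and 1 h and between 8 h and 24 h were smaller, at -0.63 for 1 h minus 0 h and -0.10 for 24 h minus 8 h. Of all genes compared, 0.698% were at least 2-fold higher at 3 h than at 1 h, and 1.03% were at least 2-fold lower at 8 h than at 3 h. The sizes of these steps rested on how the arrays were scaled: with a common spread, 3 h minus 1 h was 0.43 and 8 h minus 3 h was -0.37, both under 2-fold, and 24 h minus 8 h was -0.73.

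No spread between animals exists here. The disagreement between probes of the same gene can be measured, but it leaves out any error that all probes of an array share. Over the 979 genes with several probes on both arrays, the SD between probes of the difference from sham had a median of 0.38 log2 units at 0 h and a 95th percentile of 1.06. At 3 h the median was 0.29 and the 95th percentile 0.80. A probe SD as large as the Sik1 difference was found for 0 genes at 0 h, 1 h, 3 h and 8 h and for 3 genes at 24 h. By the range between a gene's probes, 8 genes (0 h), 16 (1 h), 1 (3 h), 14 (8 h) and 34 (24 h) had probes at least as far apart as Sik1 was from sham. Sik1 itself has 1 probe, so its own probe error is unknown. It was also chosen by its differences, so where it lies against these spreads is a description.

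Ordered from the highest, the Sik1 ratios ran 3 h, 0 h, 8 h, 24 h, 1 h and sham. The gaps between neighbours in that order were 1.17, 0.29, 0.10, 0.25 and 1.85 log2 units. With 1 array a group and no spread between animals, the data do not show which of these neighbours differ. The gaps of 0.29 between 0 h and 8 h, 0.10 between 8 h and 24 h and 0.25 between 24 h and 1 h are smaller than the 95th percentile of the probe SD of other genes on those arrays (0.59, 0.64 and 0.73). With a common spread or quantile normalisation 1 h and 24 h changed places, and the other places stayed. The gap between 3 h and 0 h also rested on the scaling. With a common spread these arrays stood at 2.01 and 1.69.

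The genes that stood next to Sik1 differed from time to time. In the order of differences from sham, H2bc4 was next below Sik1 at 0 h, at 2.34, and next above it at 1 h, at 2.03. The next below at 1 h was Niban2, at 1.67. At 3 h the next gene was 2310039H08Rik, at 2.34, which left Sik1 1.31 log2 units clear. Mt1, a metal-binding metallothionein, was next above Sik1 at 8 h, at 2.27, and Abhd10 was next below, at 1.78. At 24 h Fam120b, at 2.12, and Rprd1b, at 1.96, stood on either side.

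Several of these neighbours had low sham values. H2bc4 stood at 0.75 at 0 h, against -1.59 in sham. Abhd10 stood at -0.34 at 8 h, against -2.11 in sham. Fam120b stood at 0.65 at 24 h, against -1.48 in sham. Niban2 stood at 0.69 at 1 h, against -0.98 in sham, close to the 0.81 and -1.03 of Sik1. A paced value above Pre with a sham value below it was thus shared by Sik1, H2bc4, Niban2 and Fam120b at those times. A low sham value raises a gene's place in the order these genes were taken from, so this form is partly set by the choice. Mt1 had the other form, at 3.16 at 8 h against 0.89 in sham.

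In the order of ratios to Pre, Sik1 stood at 3 h between Vamp8, a SNARE protein of endosomes, at 2.74 and Sel1l, part of the machinery for degrading proteins of the endoplasmic reticulum, at 2.48. Its neighbours were Depp1 (1.44) and Asb11 (1.44) at 0 h, and Glul, glutamine synthetase (0.82), and Golga4 (0.80) at 1 h. At 8 h they were Btg2 (1.16), an antiproliferative immediate early gene, and 2310057M21Rik (1.15). At 24 h they were the ferritin light chain gene Ftl1 (1.06) and the autophagy gene Atg13 (1.06). On the sham array the genes on either side were Pqbp1 and Kmt5b, both at -1.03.

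Genes with a course like that of Sik1 were sought by the Pearson r of the 6 log2 ratios, among 485 other genes that ranged over at least 1 log2 unit. The 5 highest were Ap3d1, a subunit of the AP-3 vesicle adaptor (r = 0.99), Nop14, a factor of small ribosomal subunit assembly (0.98), Axin1 (0.97), the histone demethylase gene Kdm5c (0.94) and the sialomucin gene Cd164 (0.94). These are likenesses of shape over 6 arrays that share Pre, given without a p-value. Sizes were smaller: at 3 h minus sham, Axin1 was at 2.04, Ap3d1 at 1.66, Nop14 at 1.33, Kdm5c at 1.23 and Cd164 at 1.04, against 3.65 for Sik1. When an array was left out, a range of at least 1 log2 unit was required again over the arrays kept. Over the 5 paced arrays all 5 genes ranged over less than that, so they were not among the 293 other genes ranked. That 0 of them were in the top 5 without sham was therefore set by the filter and does not bear on likeness. The same count was 0 with the 3 h array left out, where the filter removed Nop14 and Cd164. On the 5 paced arrays alone, Ap3d1 and Nop14 had an r of 0.96 with Sik1 each, Axin1 0.88, Kdm5c 0.87 and Cd164 0.78.

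By distance over the 6 arrays, which also counts size, the nearest gene was 2310039H08Rik at 1.64 log2 units. It stood at 0.43 (0 h), 0.34 (1 h), 2.43 (3 h), 0.85 (8 h) and 0.82 (24 h), against 0.09 in sham. Its 3 h value was thus close to that of Sik1, and it lacked the low sham value. Txnl1, a thioredoxin-like gene, followed at 1.76, then Nop14 at 1.77, the cAMP phosphodiesterase gene Pde4b at 1.80 and Got1, cytosolic aspartate aminotransferase, at 1.88. With sham left out, 1 of these 5 genes, Pde4b, remained among the nearest 5. The others were Ubr4, which was the nearest, Rrad, a Ras-related GTPase gene, Bub1 and Chrd, all named here after their values were seen.

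**Figure D4:**
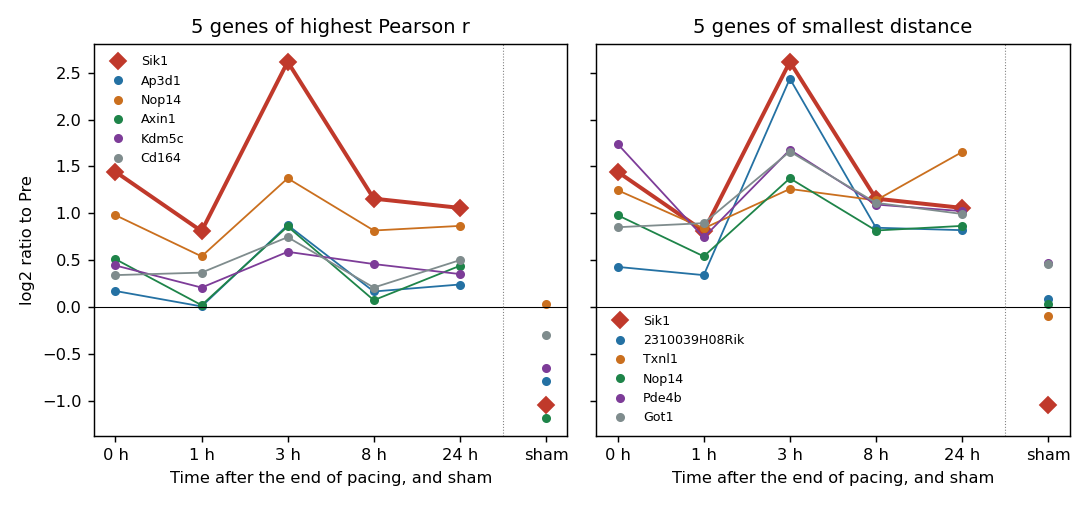
Log2 ratios to Pre on the 5 paced arrays in time order and on sham (right) for Sik1 (red diamonds) and the 5 genes of highest Pearson r (left panel) or of smallest distance over the 6 arrays (right panel). Genes of high r share the shape at lower size, while 2310039H08Rik comes near the 3 h value of Sik1, 2.61, with a sham value near 0.

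Of 25 listed kinases of the salt-inducible and AMPK-related family and their activator, 6 besides Sik1 were measured on 1 or more paced arrays; Sik2 and Sik3 are not analysed here. Stk11, which encodes LKB1, stood at -0.02 (0 h), -0.16 (1 h), -0.19 (3 h), -0.16 (8 h) and -0.08 (24 h), against -0.20 in sham. Stradb, a pseudokinase partner of LKB1, differed from sham by at most 0.16 in size. Prkag3, a regulatory AMPK subunit of fast muscle, went the opposite way to Sik1, at -1.51 (0 h), -0.92 (1 h), -1.04 (3 h), -1.58 (8 h) and -1.35 (24 h), against -0.21 in sham. It was the 1 member besides Sik1 past 2-fold from sham, in the lower direction, at 0 h, 8 h and 24 h, with differences of -1.30, -1.37 and -1.14. Genes that far below sham made up 3.07% (0 h), 0.676% (1 h), 0.992% (3 h), 1.87% (8 h) and 2.89% (24 h) of all genes. That 0 of the 6 passed 2-fold above sham is close to the background, since 6.7% of all genes did so at 1 or more of the 5 times. The 6 genes had median differences from sham between -0.03 and 0.12 over the 5 times, against 0.02 to 0.08 for all genes.

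Among genes for cAMP, PKA and CREB, 11 of 29 were measured and 3 passed 2-fold from sham at some time, as did 12% of all genes. Genes past 2-fold from sham in either direction made up 6.5% of all genes (0 h), 1.54% (1 h), 2.42% (3 h), 3.66% (8 h) and 5.98% (24 h). Pde4b, which degrades cAMP, was the 1 that passed in the higher direction, at 1.27 at 0 h and 1.21 at 3 h; against Pre it stood at 1.74 (0 h), 0.75 (1 h), 1.68 (3 h), 1.10 (8 h) and 1.02 (24 h), against 0.47 in sham. Its ratios to Pre were therefore near those of Sik1 at 1 h, 8 h and 24 h, above at 0 h and below at 3 h. Prkaca, the PKA catalytic subunit, was 2-fold or more below sham at 0 h and 8 h, with log2 differences of -1.01 and -1.10 and sham at 0.45 above Pre. Akap6, which anchors PKA in muscle cells, was at -1.14 at 8 h but at 0.39 at 3 h. Crtc2, a CREB coactivator, and Gnai2, an inhibitory G protein subunit, differed from sham by at most 0.18 in size. The 3 probes of Gnai2 disagreed at 3 h, with an SD of 0.85. Medians of the list lay between -0.00 and 0.14 over the 5 times.

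A list of 20 genes joined the class IIa histone deacetylases, MEF2 factors and 14-3-3 proteins with myogenin and kinases known to phosphorylate the deacetylases. Of these, 14 were measured, among them the calcium/calmodulin kinase genes Camk2a, Camk2d and Camk2g. Past 2-fold from sham were 0 of them at 0 h, 1 h, 3 h and 8 h, where the shares over all genes were the 6.5%, 1.54%, 2.42% and 3.66% given above, and 2 of 14 at 24 h, where it was 5.98%. In a list of this size 0 is close to those shares. At 24 h Hdac4 was at 1.05 and Ywhah, a 14-3-3 gene, at 1.03. The 2 probes of Hdac4 disagreed, at 2.11 and -0.01, and on the 1 Ywhah probe measured on both arrays the difference was 0.90. Hdac5 and Ywhaq differed from sham by at most 0.31 in size. The median difference was 0.34 at 24 h and between -0.12 and 0.01 at the other times.

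Among genes known to respond to CREB or to muscle activity, 15 of 28 were measured, and 6 were past 2-fold above sham at some time: 3 (0 h), 2 (1 h), 2 (3 h), 2 (8 h) and 1 (24 h). Over all genes 6.7% passed above sham at some time, and 3.43%, 0.865%, 1.43%, 1.79% and 3.09% did so at the single times. The list was chosen with earlier results of these data known, so the count is a description. None was past 2-fold below sham. Gadd45a, a stress-induced gene, was measured on 2 paced arrays, at 2.78 at 1 h and 3.83 at 8 h, against 1.34 in sham. Pdk4, which restrains pyruvate oxidation, was at 3.54 at 0 h and between 1.70 and 2.22 at the later times, against 1.89 in sham, and 0 h, with a difference of 1.65, was the 1 time past 2-fold. Id1, an inhibitor of DNA-binding helix-loop-helix factors, was past 2-fold at 0 h, 1 h and 8 h, by 1.21, 1.19 and 1.06, with sham at -0.94 and the 3 h array at -1.11. Like Sik1, Id1 had a low sham value, but at 3 h the genes stood at opposite ends, 2.61 for Sik1 and -1.11 for Id1.

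Btg2 was 1.09 above sham at 0 h and 1.01 at 3 h, but its 2 probes disagreed, at 2.55 and -0.38 at 0 h and at 2.12 and -0.11 at 3 h. Dusp1, a phosphatase of MAP kinases, and the clock gene Per1 moved least, with largest differences of 0.12 and 0.24 in size. Median differences of the target genes lay between 0.07 and 0.21 over the 5 times. In difference from sham, by gene means, Sik1 thus exceeded every measured member of the list at 0 h, 1 h, 3 h and 24 h. Gadd45a, not measured at 0 h, 3 h or 24 h, exceeded it at 8 h. The low sham value of Sik1 is part of these differences. Against Pre, Sik1 stood above every measured member at 3 h alone. Pdk4 was above it at 0 h, 1 h, 8 h and 24 h, at 3.54, 1.80, 2.22 and 1.70.

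**Figure D5:**
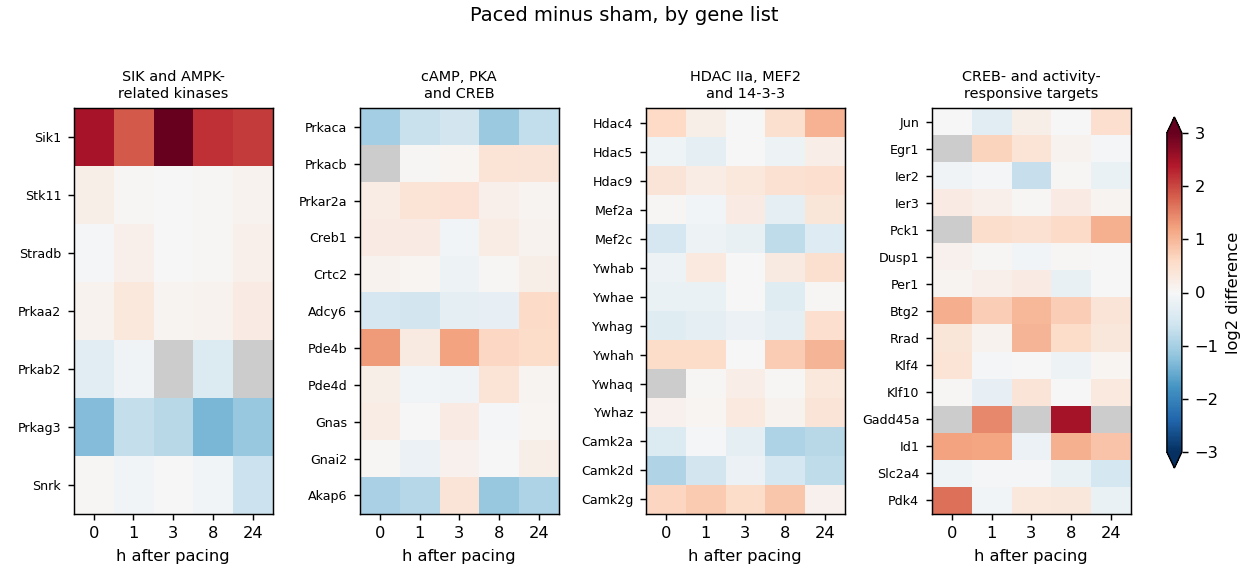
Log2 difference from sham at the 5 times after pacing for every measured member of the 4 gene lists (red higher than sham, blue lower, grey not measured on both arrays; colours end at 3 log2 units). Sik1 is high at all 5 times, with its strongest colour at 3 h, while Stk11 and Dusp1 stay near 0 and Prkag3 is lower than sham throughout.

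CREB binds the cAMP response element, whose palindromic form is TGACGTCA and whose core on either strand is TGACG. RefSeq promoter windows on GRCm38.p6 run from 250 bases before to 50 bases after a gene's start. They were matched by symbol for 21 of 27 genes, and not for Sik1, Axin1, Crtc2, Gnai2, Id1 and Txnl1. The 27 were Sik1, the list members named for the largest or smallest differences from sham, and the genes of the likeness searches. The palindrome was found in the windows of 3 of the 21 genes, and 1.79% of all 32851 windows hold it. The core, which the palindrome also contains, was found in 1 or more windows of 13 of the 21 genes and in 20.8% of all windows; Pde4b, Per1 and Prkaca have several windows each. Btg2, Dusp1 and Per1 were on the list of genes known to respond to CREB or to muscle activity, and the other genes with the core were not. The genes were picked by rules that used their values in these data. Counts were also per gene, while the shares are per window. The counts are therefore no independent evidence, and a difference from the shares was not tested. The 3 stretches that hold the palindrome are shown, with capitals marking it. Each stretch of 100 bases lies before the gene's start and reads 5′ to 3′ on the gene's strand.
Btg2, chr1:134079268-134079367, minus strand: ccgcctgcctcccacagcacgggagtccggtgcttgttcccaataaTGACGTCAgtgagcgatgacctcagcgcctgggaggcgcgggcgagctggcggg
Dusp1, chr17:26508562-26508661, minus strand: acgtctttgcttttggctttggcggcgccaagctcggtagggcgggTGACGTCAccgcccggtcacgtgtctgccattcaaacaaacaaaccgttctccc
Ywhah, chr5:33018674-33018773, plus strand: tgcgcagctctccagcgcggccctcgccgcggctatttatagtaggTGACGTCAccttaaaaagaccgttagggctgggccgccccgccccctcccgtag
The motif ended 158 bases before the start of Btg2, 135 before that of Dusp1 and 88 before that of Ywhah. At 3 h, where Sik1 was highest, the differences from sham were 1.01 for Btg2, -0.08 for Dusp1 and -0.02 for Ywhah. The 2 probes of Btg2 were at 2.12 and -0.11, so 1 of them lay close to Dusp1. For Ywhah 3 h was the lowest time, with gene means of 0.56 (0 h), 0.56 (1 h), 0.76 (8 h) and 1.03 (24 h).

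Markers of other cell types were few on these arrays, and in bulk muscle fewer cells of a type cannot be told apart from less RNA per cell. At 3 h, where Sik1 was highest, the endothelial gene Cdh5 was 1.19 above sham and the fibroblast receptor gene Pdgfra was at -1.59. The other endothelial markers, Pecam1 and Tek, were at 0.34 and 0.18. The other fibroblast markers went both ways, with Col1a2 at 0.21 and Dcn at -0.43. Median differences from sham at 3 h were 0.34 for 3 of 5 listed endothelial markers, -0.43 for 3 of 5 fibroblast markers and -0.34 for 2 of 4 smooth muscle markers. The single marker compared at 3 h was at -0.17 for blood cells, 0.09 for leukocytes, 0.11 for fat and 0.06 for nerve, and the part of these cells in the Sik1 values was not tested. No satellite cell marker of the 4 listed was measured. Of 9 listed genes of muscle fibres, 7 were compared at 3 h, with differences from -0.41 to 0.67 and a median of -0.01.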

How the data were processed

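The table the authors deposited holds log10 ratios of 13872 probes on 6 arrays with 2 channels; per the labels, channel 1 held the sample and channel 2 the reference Pre. The log10 base was read from rounding residues of 9.64e-17 in 52 cells. Image analysis, background correction, dyes and normalisation are not given in the sources used here. Ratios were converted to log2, and exact zeros (under 1e-12 in size) and sham values shared within a run of probe IDs (1 of 48) were set to missing. Each array was centred on its median, which moved values by at most 0.013. Of the probes, 6609 had exactly 1 symbol, 284 several and 6979 none. Of those with 1 symbol, 6599 were matched by Entrez ID and took the symbol listed there (GRCm38.p6 table, names only). Measured probes were averaged per gene, and a call was a log2 difference of 1 or more in size. Named genes were Sik1, its activators, up to 4 list members past 2-fold with the largest differences and the 2 with the smallest from each list, the 5 genes most like Sik1 by each measure, and its neighbours in each order. Cell type markers are named for the lists whose members passed 2-fold at 3 h. The gene, lists and rules were chosen with earlier results of these data known. With 1 array a group no p-value was computed, and the number of arrays limits the precision. The 2-fold call and the search by r were tried on simulated gene values with less noise than the arrays. Masking, centring and averaging of probes were not tried in this way (Python 3.11.15, pandas 2.3.3, numpy 2.4.6).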

Additional observations from a re-analysis of the deposited data

How the results depend on the processing

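Sik1 stayed above sham by over 2-fold at all 5 times with zeros and shared values kept, without centring, with centring per print block, with a common spread and with quantile normalisation. With a common spread the 3 h difference from sham was 2.72; ratios to Pre were 1.57 (1 h), 2.01 (3 h), 0.91 (24 h) and -0.71 (sham); and the steps were 0.43 (3 h minus 1 h), -0.37 (8 h minus 3 h) and -0.73 (24 h minus 8 h). With quantile normalisation, ratios to Pre were 1.15 (1 h), 0.79 (24 h) and -0.87 (sham). Set against Pre in place of sham, the values were 1.44, 0.81, 2.61, 1.16 and 1.06 at 0 h, 1 h, 3 h, 8 h and 24 h, because the sham value drops out. Genes of the histone deacetylase list past 2-fold numbered 2, against 1 with zeros and shared values kept and 0 with quantile normalisation. On probes measured on both arrays, an alternative added after seeing the data, the count was 1. At 1.5-fold it was 6, and for the kinase list 1 became 2. The share of all genes called at some time, 12%, was counted at 2-fold with the main processing alone. The counts under the other settings and at 1.5-fold therefore cannot be set against a background. Of the 5 genes of highest r, 0 to 4 stayed with 1 array left out, 3 with Spearman's rho and 3 with zeros and shared values kept. Without sham the 0 was set by the range filter, which removed all 5. Of the 5 nearest by distance, 1 to 5 stayed with 1 array left out and 5 with zeros and shared values kept. Scaling also moved the share of called genes that were higher than sham, at 1 h to 68.2% with a common spread and 43.6% with quantile normalisation, against 56.1%. It was 38.5% at 8 h and 41.4% at 24 h with quantile normalisation, against 48.9% and 51.6%. No paired analysis was possible because each group has 1 array, and the difference comes from no test. The files hold no signal over background, so the depth of the Sik1 spot is unknown.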
